A study of Mus musculus with 19 samples.

Results

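The 10 genes described here encode proteins that the mouse oocyte stores for the embryo. They are Nlrp5, Ooep, Padi6, Khdc3, Tle6, Nlrp14, Nlrp4f, Npm2, Dppa3 and H1foo, chosen by symbol from a table of 36172 genes, in which each symbol had 1 row. All 10 passed the filter on low counts and were among the 15518 genes tested. RNA of whole ovaries from C57BL/6 females, an inbred laboratory strain, was sequenced when they were 3, 6, 9 or 12 months old, with 5 libraries for each age up to 9 months and 4 for the oldest. The labels name no treatment or genetic change in any of them. They also do not state if a library stands for 1 mouse. The p-values weigh differences between ages against the spread between these libraries, and that spread could be technical.

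Maternal-effect genes are transcribed while the oocyte grows, and their products are needed after fertilisation, before the embryo's own genome takes over. Nlrp5 (also called Mater), Ooep (Floped), Tle6, Khdc3 (Filia), Padi6 and Nlrp4f belong to the subcortical maternal complex of the mouse, a protein assembly under the egg's cell membrane that is tied to the storage structures called cytoplasmic lattices. Females that lack Nlrp5, Ooep, Padi6 or Tle6 produce embryos that stop at early cleavage. Nlrp14 is a further oocyte gene of the NLRP family. Npm2, Dppa3 and H1foo are not subunits of the complex: they encode a nuclear histone chaperone, a protein that guards DNA methylation of the maternal genome, and the linker histone of the oocyte. In an ovary the transcripts of these genes are taken here to come mainly from oocytes, which are a small part of the tissue. Whether other cells in these libraries also held them was not tested. In whole-ovary RNA fewer oocytes and less RNA per oocyte cannot be told apart.

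The libraries held 10851519 to 14302207 estimated counts each. Markers of follicle cells, of secreted oocyte proteins and of the oviduct were present at every age, the oviduct gene Ovgp1 at 1620 to 6150 CPM. CPM here are counts scaled by library size and TMM factors. The 9 month replicate 2 library stood apart: it was the lowest 9 month library for all 10 genes, with a summed level of 30.0 CPM, against 83.3 to 165 CPM in the other 9 month libraries. The same library had the lowest sum of granulosa cell markers (1210 CPM, against 1780 to 4100 CPM in the other 18 libraries), the highest sum of oviduct markers (6390 CPM, against 1810 to 5300 CPM) and 127 CPM of lymph node markers. Liver markers summed to 641 CPM in 9 month replicate 3, 198 CPM in replicate 2 and 88.2 CPM in replicate 1, against 10.9 to 43.1 CPM in the other 16 libraries of all ages. Of 5 tested liver markers 4 rose at 9 months against 3 months (median log2 change 7.32), where 11.3% of all genes tested rose, and 4 at 9 months against 6 months (median 5.94), where 7.44% rose. Of 6 lymph node markers 5 rose in the first of these comparisons and 1 in the second. Of 10 granulosa cell markers 2 fell in each, where 13.6% and 9.8% of all genes tested fell. Cr2, a marker of lymph node follicles, exceeded 5 CPM in 9 month replicates 1 and 2 and in 12 month replicate 2. Lymph node markers summed to 2.74 to 192 CPM at 12 months, 5.17 to 127 CPM at 9 months, 3.07 to 7.54 CPM at 6 months and 2.39 to 5.03 CPM at 3 months. The part of these markers in the results was not tested, but each count of the 10 genes called between a pair of ages was also made without those 3 libraries. An alternative added after values were seen also left out 9 month replicate 3, and so every library over 50 CPM of liver markers. The tests of successive steps and of ratios to secreted oocyte genes, given below, were made under neither.

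All 10 genes were lower at 12 months than at 3 months and passed the test, in a comparison in which 11.5% of all genes tested fell. They fell by 0.84 to 1.94 on the log2 scale, with a median of -1.77, while the median of all genes tested was 0.02. Tle6 fell least, to 56.0% of its 3 month level, and Nlrp4f fell most. In each of the 10 genes every 12 month library lay below every 3 month library, a pattern found in 9.75% of all genes tested. At 9 months against 3 months all 10 also fell, by 1.08 to 2.38 with a median of -2.11, where 13.6% of genes tested fell, and all 10 had every 9 month library below every 3 month library, as had 9.42% of genes tested. Without the 3 libraries with Cr2 above 5 CPM, and also without the 4 with Cr2 or liver markers, all 10 were again called lower in both comparisons. Without the 3, 3878 of all genes tested were called in either direction at 12 months and 2731 at 9 months. Without the 4 these counts were 3914 and 1275, and with all libraries 3475 and 3872. With the mean of 6 secreted oocyte genes as a covariate none of the 10 was called at 12 or at 9 months against 3 months. That covariate varies with the 10 genes, and few of all genes tested were called under it, as given in the closing section. This count therefore does not set the 10 apart from other genes.

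**Figure D1:**
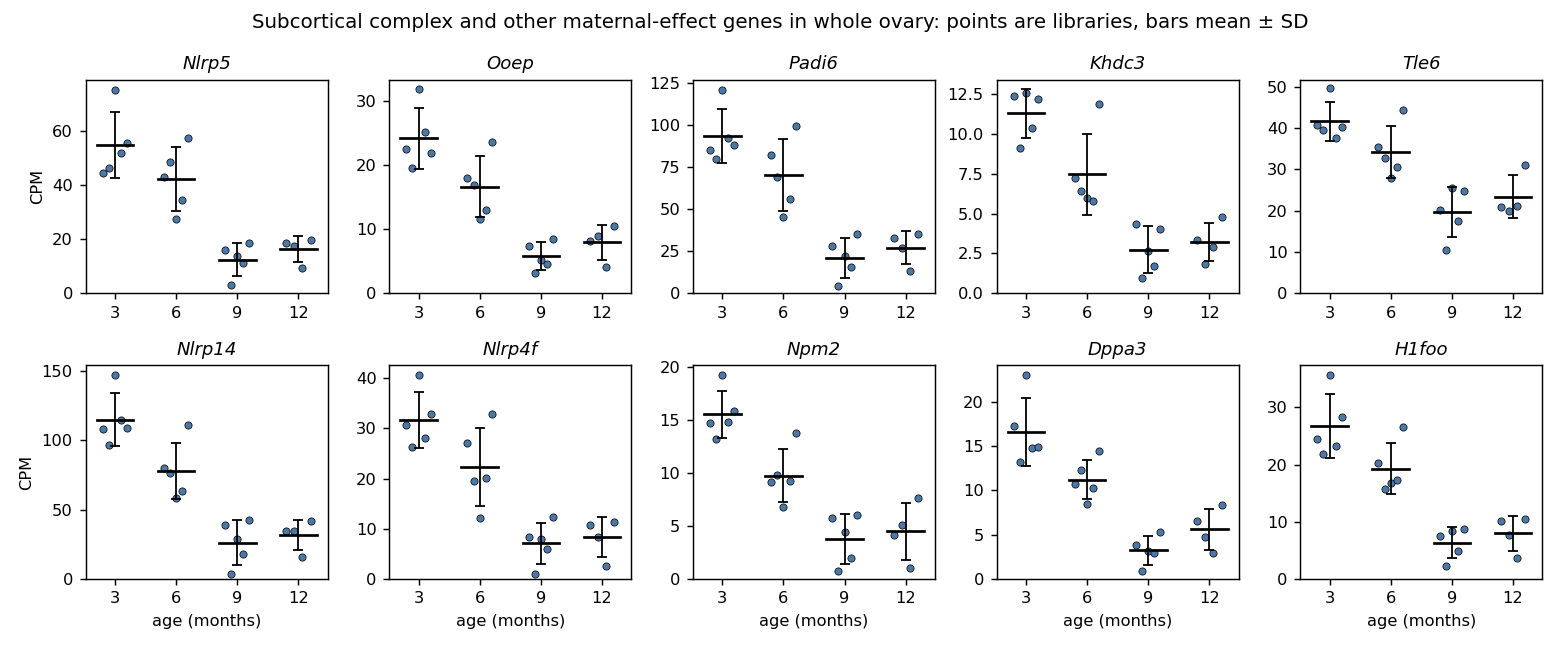
Level of each gene in CPM (vertical axis, from 0) by age in months (horizontal axis). Points are libraries, the horizontal bar is the mean and the error bar 1 SD. The points of 9 and 12 months lie below all points of 3 months in every panel.

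The 4 best studied subunits of the complex, Nlrp5, Ooep, Tle6 and Khdc3, showed the same order of ages apart from the size of the difference. Nlrp5 encodes the NLRP protein at the core of the complex and lies on chromosome 7 from 23385889 to 23441922 (plus strand; GENCODE gene models on GRCm38, the mm10 assembly). It had 44.6, 46.2, 75.3, 52.0 and 55.4 CPM at 3 months, 42.8, 48.6, 27.4, 34.6 and 57.4 CPM at 6 months, 16, 2.88, 13.7, 11.2 and 18.5 CPM at 9 months, and 18.7, 17.4, 9.42 and 19.6 CPM at 12 months. The ranges of 3 and 6 months overlapped and those of 9 and 12 months overlapped, and the 2 pairs of ages were apart. Nlrp5 fell by 1.75 ± 0.36 at 12 months against 3 months (log2, SE; edgeR's quasi-likelihood test, adjusted p = 0.00369).

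Ooep encodes a small KH-domain-like protein that binds the other core subunits, and lies on chromosome 9 from 78376109 to 78378725 (minus strand). It had 22.4, 19.5, 31.8, 25.1 and 21.8 CPM at 3 months, 18, 16.9, 11.5, 13 and 23.5 CPM at 6 months, 7.41, 3.1, 5.17, 4.6 and 8.45 CPM at 9 months, and 8.13, 8.95, 4.08 and 10.5 CPM at 12 months. Every 9 and 12 month library was below every younger one. The fall at 12 months against 3 months was 1.61 ± 0.29 (log2, SE; edgeR adjusted p = 0.00158).

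Khdc3, a KH-domain protein gene linked to chromosome stability in mouse embryos, lies on the same chromosome from 73101836 to 73104438 (plus strand) and had the lowest level per kilobase of the 10 genes at every age. It had 12.4, 9.12, 12.6, 10.4 and 12.2 CPM at 3 months, 7.22, 6.42, 6.01, 5.8 and 11.9 CPM at 6 months, 4.34, 0.936, 2.66, 1.72 and 4.03 CPM at 9 months, and 3.36, 1.84, 2.89 and 4.76 CPM at 12 months. In the 6 month group 1 library, replicate 5, was within the 3 month range and the other 4 were below it. Khdc3 fell by 1.82 ± 0.35 at 12 months against 3 months (log2, SE; edgeR adjusted p = 0.00239). Its gene model overlaps Gm20509 on the same strand, so its counts are uncertain.

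Tle6, a relative of the Groucho corepressors, lies on chromosome 10 from 81590904 to 81601073 (minus strand). It had 40.8, 39.5, 49.7, 37.6 and 40.3 CPM at 3 months, 35.4, 32.7, 27.9, 30.6 and 44.3 CPM at 6 months, 20.1, 10.5, 25.5, 17.4 and 24.7 CPM at 9 months, and 20.9, 20, 21.1 and 31.1 CPM at 12 months. The 12 month libraries were below those of 3 months, but replicate 4 of 12 months was above the lowest 6 month library. Its fall of 0.84 ± 0.20 at 12 months against 3 months (log2, SE; edgeR adjusted p = 0.00802) was the smallest of the 10.

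Padi6 and Nlrp4f complete the complex. Padi6, a member of the peptidylarginine deiminase family that is needed for cytoplasmic lattices, lies on chromosome 4 from 140727355 to 140742643 (minus strand). It had 85.0, 79.8, 121, 92.4 and 88.1 CPM at 3 months, 82.2, 68.8, 45.5, 55.9 and 99.5 CPM at 6 months, 27.8, 4.54, 22.0, 15.3 and 34.9 CPM at 9 months, and 32.8, 26.8, 13.4 and 35.0 CPM at 12 months. No library of 9 or 12 months reached the lowest of the younger ages. Padi6 fell by 1.79 ± 0.40 at 12 months against 3 months (log2, SE; edgeR adjusted p = 0.00565). Nlrp4f, on chromosome 13 from 65177111 to 65205977 (minus strand), fell by 1.94 ± 0.47 (edgeR adjusted p = 0.00846). It averaged 8.25 ± 3.98 CPM (SD, n = 4) at 12 months and 31.7 ± 5.58 CPM (SD, n = 5) at 3 months. Reads of Nlrp4f could be split with its close NLRP4 relatives, depending on how the authors counted, so its level is uncertain.

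Nlrp14 was the most abundant transcript of the 10 in CPM at each age. It lies on chromosome 7 from 107166990 to 107198102 (plus strand) and had 96.5 to 147 CPM at 3 months, 58.4 to 111 CPM at 6 months, 3.17 to 42.2 CPM at 9 months and 16 to 41.6 CPM at 12 months. It fell by 1.86 ± 0.45 at 12 months against 3 months (log2, SE; edgeR adjusted p = 0.00874).

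The 3 genes of the oocyte nucleus fell by similar amounts. Dppa3 (Stella), on chromosome 6 from 122626410 to 122630272 (plus strand), had 17.3, 13.2, 23.0, 14.8 and 14.9 CPM at 3 months, 10.7, 12.3, 8.42, 10.3 and 14.4 CPM at 6 months, 3.79, 0.864, 3.19, 2.89 and 5.25 CPM at 9 months, and 6.49, 4.74, 2.89 and 8.31 CPM at 12 months. It was the gene with the lowest 9 month level relative to 3 months, 19.2%, and it fell by 1.57 ± 0.34 at 12 months (log2, SE; edgeR adjusted p = 0.00445). H1foo, on the same chromosome from 115944938 to 115950236 (plus strand), averaged 7.99 ± 3.09 CPM (SD, n = 4) at 12 months and 26.8 ± 5.57 CPM (SD, n = 5) at 3 months. Npm2, the nucleoplasmin of the egg, lies on chromosome 14 from 70647302 to 70659244 (minus strand) and averaged 4.47 ± 2.72 CPM (SD, n = 4) at 12 months and 15.5 ± 2.23 CPM (SD, n = 5) at 3 months. It fell by 1.80 ± 0.47 (log2, SE; edgeR adjusted p = 0.0123). Its model overlaps Xpo7 on the same strand, so its counts are uncertain. The lowest value of Npm2, 0.72 CPM in 9 month replicate 2, rested on 10 counts, with an exact 95% Poisson interval of 0.345 to 1.32 CPM that covers counting error only.

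Reference sequence upstream of RefSeq starts of the genes is shown as background, and its part in their change with age was not tested. These starts can differ from the ends of the GENCODE gene models given above. The windows printed for Ooep, Khdc3 and Tle6 lie inside the GENCODE spans of those genes. RefSeq promoter entries on GRCm38.p6 were found for 7 of the 10 genes, and none was found for Nlrp14, Npm2 and Dppa3 among those given. The oocyte transcription factor FIGLA is known to act through the E-box, CANNTG, a motif that reads the same on both strands. A CANNTG lay within 100 bases before the start in 34.4% of all 32851 promoters given. Capitals mark each CANNTG in the 100 bases before the annotated start of 6 of the genes, printed 5′ to 3′ on the strand of the gene.

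Ooep, chr9:78378589-78378688, minus strand: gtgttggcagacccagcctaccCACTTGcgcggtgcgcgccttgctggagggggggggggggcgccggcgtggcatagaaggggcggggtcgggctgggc

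Padi6, chr4:140742644-140742743, minus strand: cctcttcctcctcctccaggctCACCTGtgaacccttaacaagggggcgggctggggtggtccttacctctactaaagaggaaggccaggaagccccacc

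Khdc3, chr9:73102298-73102397, plus strand: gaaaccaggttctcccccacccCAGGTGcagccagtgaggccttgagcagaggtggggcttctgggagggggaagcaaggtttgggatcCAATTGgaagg

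H1foo, chr6:115944831-115944930, plus strand: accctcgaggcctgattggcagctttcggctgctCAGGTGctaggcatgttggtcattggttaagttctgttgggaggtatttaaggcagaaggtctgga

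Tle6, chr10:81600901-81601000, minus strand: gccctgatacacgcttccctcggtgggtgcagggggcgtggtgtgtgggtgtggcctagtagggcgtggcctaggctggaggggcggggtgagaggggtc

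Nlrp5, chr7:23385789-23385888, plus strand: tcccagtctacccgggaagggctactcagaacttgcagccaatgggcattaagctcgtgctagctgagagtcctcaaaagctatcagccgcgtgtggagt

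Ooep, Padi6, Khdc3 and H1foo each held the motif in this window, and the starts shown for Tle6 and Nlrp5, a further start of each, and the start of Nlrp4f did not. That is 4 of 9 starts (44.4%), beside 34.4% of all promoters. By gene it is 4 of 7, for which no share over all genes was counted. In Ooep, Padi6 and Khdc3 one match began exactly 78 bases before the start, a spacing noticed on reading the sequences. Of all 32851 promoters 159, or 0.484%, had a CANNTG at that place. Since the place was picked from these same sequences, that share does not measure how rare a shared spacing is. Further oocyte motifs, TAATTA and TAATTG, bound by homeodomain proteins such as NOBOX, were searched on both strands in the 250 bases before the start. TAATTA occurred in 4.84% and TAATTG in 7.17% of all promoters. Among the 7 genes, 1 start of Nlrp5 held TAATTA and Ooep held TAATTG. These are matches of letters and no measure of binding.

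The 10 genes were called lower for the step from 6 to 9 months and for neither of the others. At 6 months against 3 months all 10 genes were lower, with a median of -0.52, and none passed the test, in which 3 genes of all tested (0.0193%) were called. Without adjustment Ooep alone passed a threshold of 0.05 in edgeR, as did 1528 of all genes tested, and none of the 10 was called by DESeq2, limma-voom or limma-trend. No gene of the 10 had every 6 month library below every 3 month library, which 1.86% of genes tested had. At 9 months against 6 months all 10 fell, by 0.80 to 1.81 with a median of -1.59, where 9.8% of all genes tested fell. In all but Nlrp4f the 9 month libraries lay below every 6 month library, 9 genes of the 10, against 7.74% of genes tested. Without the 3 libraries with Cr2 above 5 CPM 9 of the 10 were called, all but Npm2 (edgeR adjusted p = 0.0761), and 2118 of all genes tested. Without the 4 libraries with Cr2 or liver markers, which leaves 2 libraries of 9 months, the 10 log2 changes were -1.50 to -0.69. In that setting 4 of the genes, Nlrp5, Khdc3, Dppa3 and H1foo, were called (edgeR adjusted p = 0.0392 to 0.0406, and 0.0563 to 0.189 for the other 6), and 557 of all genes tested. Npm2 was the weakest call of the 10 (-1.37 ± 0.44; log2, SE; edgeR adjusted p = 0.039). That call was lost when any of 9 libraries was left out (3 month replicates 1 and 5, 6 month replicates 1, 2, 4 and 5, and 9 month replicates 2, 3 and 4; log2 change -1.44 to -1.09, adjusted p up to 0.0989).

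**Figure D2:**
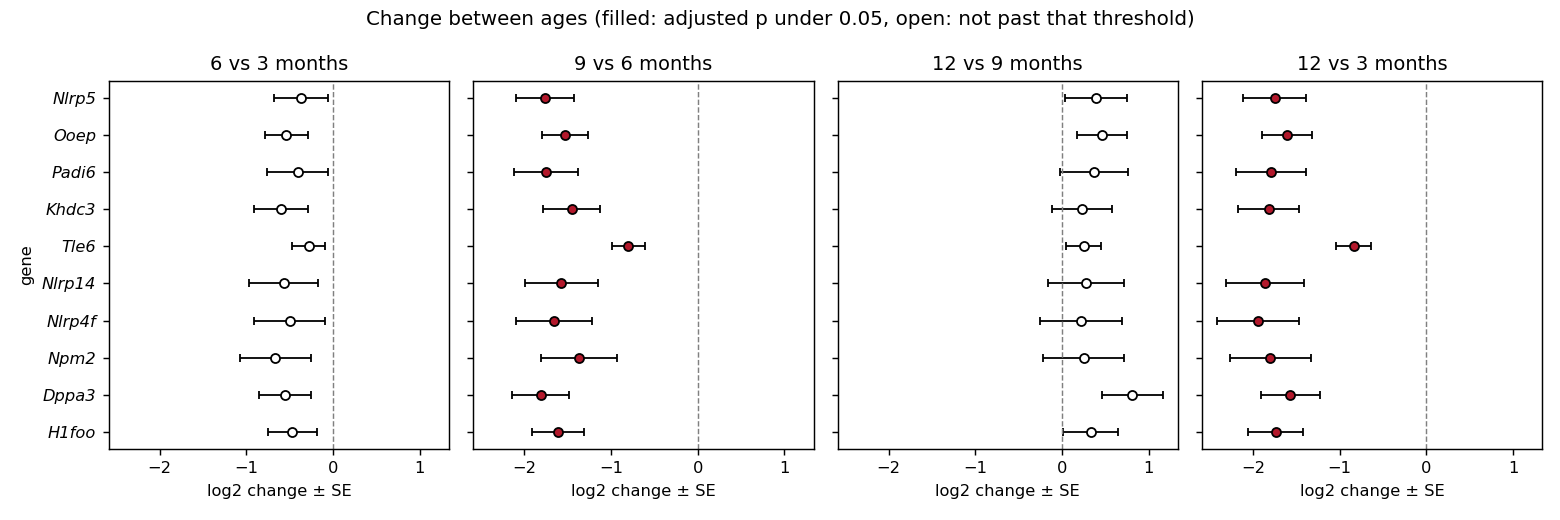
Log2 change between ages (horizontal axis) for each gene (vertical axis), with error bars of 1 SE from edgeR. Filled points passed an adjusted p under 0.05. All 10 points are filled for 9 against 6 months and for 12 against 3 months, and all 10 are open for 6 against 3 and 12 against 9 months.

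At 12 months against 9 months all 10 genes were higher, by 0.22 to 0.81 with a median of 0.30, and none passed the test, in which 0 genes of all tested (0%) were called. Without adjustment Dppa3 (0.81 ± 0.35; log2, SE) was the gene of the 10 that passed a threshold of 0.05 in edgeR, as did 2152 of all genes tested. DESeq2 called 252 genes in this comparison and none of the 10. Without 9 month replicate 2 the log2 changes of Nlrp14, Nlrp4f and Npm2 were -0.02, -0.08 and -0.03. Without 12 month replicate 4 those of Khdc3 and Npm2 were -0.02 and -0.15.

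Whether successive steps differed was tested as a difference of contrasts in the same fit, a test added after these values were seen. The step from 9 to 12 months was above the step from 6 to 9 months by 1.99 ± 0.49 in Ooep and by 2.63 ± 0.60 in Dppa3 (log2, SE; edgeR adjusted p = 0.0295 and 0.0202), and 4.57% of all genes tested were called. For the other 8 genes the difference was 1.05 to 2.15 and was not called (edgeR adjusted p = 0.051 to 0.251). The step from 6 to 9 months was below the step from 3 to 6 months by 0.52 to 1.39 in the 10 genes, and none was called (edgeR adjusted p = 0.233 to 0.682). Without adjustment 5 of the 10 passed a threshold of 0.05 in that test, as did 2356 of all genes tested, and 0.284% of all genes were called after it. These steps share the libraries of the age between them, and the tests of steps were not repeated with libraries left out. Without the 3 libraries over 5 CPM of Cr2 the change at 12 against 9 months was 0.63 in Dppa3 and 0.30 in Ooep (log2). At 9 against 6 months it was then -1.55 in Dppa3 and -1.43 in Ooep. As a linear trend over 9 months all 10 fell, by 1.02 in Tle6 to 2.27 in Nlrp4f, with a median of -2.09, where 14.8% of genes tested fell.

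Within an age the 10 genes were high or low in the same libraries. Replicate 3 of 3 months, replicate 5 of 6 months and replicate 4 of 12 months were each the highest library of their age for all 10 genes. Replicate 2 of 9 months was the lowest of its age for all 10, replicate 3 of 6 months for 8 and replicate 3 of 12 months for 8. In 9 month replicate 2 the levels were 2.75% of the 3 month mean for Nlrp14, 2.95% for Nlrp4f, 5.26% for Nlrp5, 12.8% for Ooep and 25.3% for Tle6. Across the 19 libraries the log2 level of each gene had a Pearson correlation of 0.951 (Khdc3) to 0.995 (Padi6) with the mean of the other 9. With the age means removed the correlation was 0.817 (Khdc3) to 0.988 (Padi6). These correlations describe libraries that share their tissue and depth across all 10 genes.

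**Figure D3:**
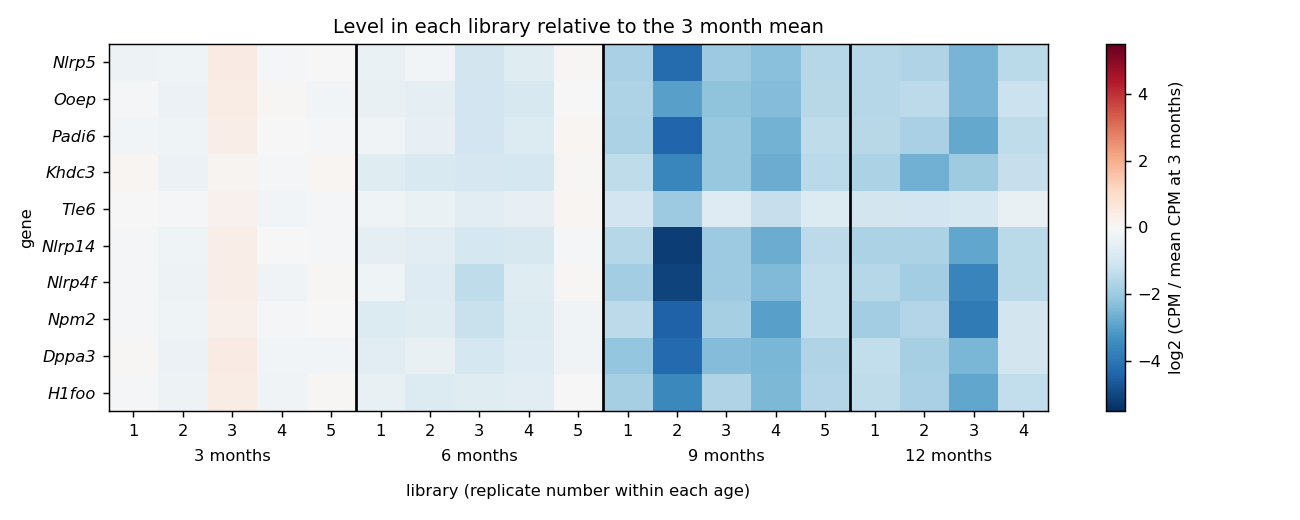
Log2 ratio of each gene (rows) in each library (columns, by age and replicate number) to its mean at 3 months. Blue is lower and red is higher. The darkest column is 9 month replicate 2, where Nlrp14 was at 2.75% of its 3 month mean, and the Tle6 row is paler than the others at 9 and 12 months.

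Patterns were compared for genes outside the 10 with a mean of at least 5 CPM. Predicted genes, with symbols of Gm or LOC and a number or ending in Rik, were left out. Of the genes compared, the closest in pattern over the 19 libraries was Gdf9, an oocyte growth factor (Pearson r = 0.996 with the mean standardised log2 level of the 10). It was followed by Khdc1b (0.992), Trim61 (0.991), Pla2g4c (0.99), Bmp15 (0.989), Zp2 (0.989), Obox2 (0.986) and Khdc1a (0.985). With the age means removed Gdf9 was again first (0.985), followed by Khdc1b (0.984), Zp3 (0.984), Zp2 (0.98), Pla2g4c (0.978), Zar1 (0.975), Zp1 (0.972) and Astl (0.968). Bmp15 encodes the partner growth factor of Gdf9, Zp1 to Zp3 encode the zona pellucida coat and Astl a protease of the egg's cortical granules. Khdc1 and Obox are families of near-identical genes, whose counts are uncertain.

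Set against 6 genes of secreted oocyte proteins (Zp1, Zp2, Zp3, Gdf9, Bmp15 and Oosp1), Tle6 was the gene of the 10 whose ratio was called higher at 9 months against 3 months. This comparison, by limma on the log2 level minus the mean of the 6 genes in the same library, was added after the smaller fall of Tle6 was seen. Relative to the 6 genes, Tle6 averaged 0.14 ± 0.13 at 3 months, 0.53 ± 0.13 at 6 months, 1.38 ± 0.72 at 9 months (log2 ratio, SD, n = 5 each) and 1.11 ± 0.42 at 12 months (n = 4). All libraries of 9 and 12 months, from 0.72 upward, were above the highest of the younger ages, 0.67. The highest ratio, 2.48, was in 9 month replicate 2. That library also had the highest 9 month ratio of Ooep (0.76), Khdc3 (-0.82), Dppa3 (-0.91) and H1foo (0.36). It had the lowest 9 month ratio of Nlrp14 (0.8) and Nlrp4f (-0.82). There the 6 genes summed to 11.9 CPM, against 218 to 340 CPM at 3 months, and Tle6 was at 25.3% of its 3 month mean. Whether Tle6 RNA of cells other than oocytes had a part in these ratios was not tested. At 9 months against 3 months the log2 ratio of Tle6 was higher by 1.24 ± 0.46 (SE; 95% interval 0.33 to 2.15; limma adjusted p = 0.00786), and it stayed called without each of the 19 libraries in turn. At 12 months against 3 months it was higher by 0.97 ± 0.49 (95% interval 0 to 1.93) and was not called (limma adjusted p = 0.0519), although it was called without 9 month replicate 1, 2 or 5.

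For the other 9 genes the change relative to the 6 secreted genes was -0.28 to 0.20 at 12 months against 3 months. None was called, and the 95% intervals, which together reached from -1.29 to 1.26, hold changes in both directions for each gene. In the same test 95.3% of all genes tested were called at 12 months and 97.8% at 9 months. The call on Tle6 is thus one it shares with nearly all genes, and the 9 genes without a call are in the small remainder. Over the trend with age the ratio of Tle6 was higher by 1.18 ± 0.54 (limma adjusted p = 0.0308; 96.9% of genes called). Without 3 month replicate 3 or 5 or 12 month replicate 3 the call on the trend was lost (adjusted p = 0.0537, 0.0531 and 0.0654).

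**Figure D4:**
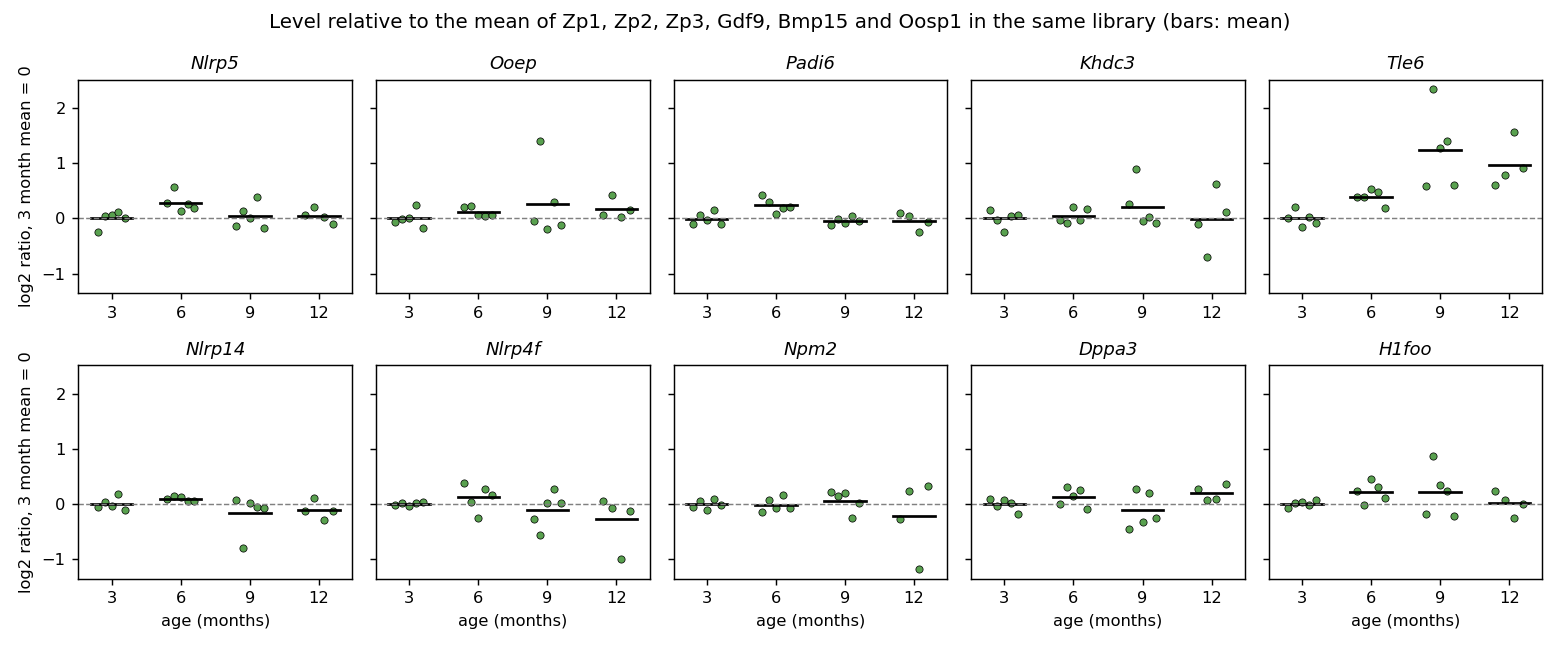
Log2 ratio of each gene to the mean of Zp1, Zp2, Zp3, Gdf9, Bmp15 and Oosp1 in the same library (vertical axis, 3 month mean set to 0) by age in months (horizontal axis). Points are libraries and bars are means. Tle6 lies above 0 in all libraries of 9 and 12 months, while the bars of the other genes stay near 0.

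Levels per kilobase of the longest RefSeq-linked transcript placed Padi6 first at 3 months (40.0 ± 6.91 CPM per kb; SD, n = 5), then Nlrp14 (35.2), H1foo (23.8), Tle6 (20.6), Dppa3 (19.9), Nlrp5 (15.6), Npm2 (15.6), Ooep (11.3), Nlrp4f (8.99) and Khdc3 (6.75). Neighbours in this order had overlapping ranges of libraries at every age. Tle6 was in place 4 at 3 months and in place 1 at 9 months (9.74 ± 3.02 CPM per kb; SD, n = 5). With the length of all exons of a gene, an alternative choice that gives Tle6 a longer model, it was in place 6 at 3 months and place 3 at 9 months.

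The other NLRP genes of the oocyte fell with the 10. Of 10 such genes 9 were tested and all 9 fell at 12 months against 3 months, with a median of -1.96, where the share of all genes was given above. Nlrp4g, which GENCODE annotates as a transcribed pseudogene, fell by 2.09 ± 0.34 (log2, SE; edgeR adjusted p = 0.000843) and Nlrp9a by 2.10 ± 0.39 (edgeR adjusted p = 0.00188). Nlrp9c fell by 1.89 ± 0.37 (edgeR adjusted p = 0.00261). Nlrp4c had a fitted fall of 4.73 ± 0.87, but was at 0 to 0.148 CPM in the 12 month libraries and 0.747 to 1.68 CPM in the 3 month libraries, so the size of its change is poorly known. Nlrp4d was listed at 0 in every library and was not tested. Reads of these genes could be split among near-identical copies.

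Of 24 other genes with a known maternal effect 23 were tested. At 12 months against 3 months, where 11.5% of all genes tested fell and 10.9% rose, 14 of the 23 fell and 1 rose. The median log2 change of the 23 was -0.46. The falls ran from 0.21 ± 0.07 in Ctcf, which organises chromatin loops (log2, SE; a call lost without any of 6 libraries, 3 month replicates 1, 3 and 5 and 12 month replicates 1, 3 and 4), to 2.0 ± 0.53 in Zar1l, a relative of Zar1. Btg4, an adaptor for the clearance of maternal mRNA, fell by 1.97 ± 0.40 (log2, SE; edgeR adjusted p = 0.00323). Zar1, which organises stored mRNA, fell by 1.63 ± 0.44, a call that ended when 12 month replicate 3 was left out. Wee2, a kinase of the oocyte cell cycle, fell by 1.82 ± 0.42. Uhrf1, a cofactor of Dnmt1, fell by 0.92 ± 0.20, Ezh2, a Polycomb methyltransferase, by 0.78 ± 0.14, Dnmt1, the maintenance DNA methyltransferase, by 0.71 ± 0.13, and Spin1, a histone reader, by 0.46 ± 0.08. Zbed3, reported as a partner of the complex in mice, fell by 0.73 ± 0.15 (edgeR adjusted p = 0.00333). The oocyte genes Sebox (-1.01 ± 0.63; edgeR adjusted p = 0.26) and Fmn2 (-0.58 ± 0.28; edgeR adjusted p = 0.138) were not called. The chromatin genes Trim28 (-0.22 ± 0.08; edgeR adjusted p = 0.0567) and Smarca4 (-0.04 ± 0.08) were not called either. The 1 gene that rose was Cdh1, the adhesion protein E-cadherin (0.57 ± 0.18; edgeR adjusted p = 0.0322), and 5 libraries, 3 month replicates 1, 2 and 3 and 12 month replicates 1 and 3, each ended this call when left out.

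Relatives of the 10 genes that other tissues also express did not fall as a group. Of 25 such genes 21 were tested. At 12 months, where 11.5% of all genes tested fell and 10.9% rose, 1 of the 21 fell and 6 rose. The median log2 change of the 21 was 0.28. Npm1, the nucleolar relative of Npm2, was the 1 that fell (-0.31 ± 0.07; log2, SE; edgeR adjusted p = 0.00713). Tle1 (0.26 ± 0.08) and Tle3 (0.28 ± 0.09), corepressors related to Tle6, rose, both calls lost without 3 month replicate 1 or 12 month replicate 2, 3 or 4. The call on Tle1 was also lost without 3 month replicate 3 and without the libraries over 5 CPM of Cr2, and that on Tle3 without 3 month replicate 2. The linker histone H1f0 (-0.03 ± 0.11) was not called.

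The other 4 genes that rose were the peptidylarginine deiminases Padi1 to Padi4, which lie beside Padi6 on chromosome 4 and convert arginine to citrulline in proteins. Padi4 runs from 140745865 to 140774236, Padi3 from 140785365 to 140810648 and Padi1 from 140812983 to 140845778 (minus strand), and Padi2 from 140906344 to 140952586 (plus strand). Padi1 had 31.2, 34.2, 19.5, 28.1 and 17.8 CPM at 3 months, 41.3, 73.0, 48.7, 51.1 and 39.4 CPM at 6 months, 108, 71.6, 44.3, 26.8 and 58.7 CPM at 9 months, and 253, 96.3, 279 and 43.7 CPM at 12 months. Its 12 month libraries differed more than 5-fold among themselves and all lay above those of 3 months, as did those of Padi3. The ages overlapped for Padi2, with 12.8 CPM in 12 month replicate 4 and 13.7 CPM in 3 month replicate 2. They also overlapped for Padi4, with 0.982 CPM in 12 month replicate 4 and 1.31 CPM in 3 month replicate 5. The share of all genes tested with such a separation upward is not given here. Padi1 rose by 2.68 ± 0.46 at 12 months against 3 months (log2, SE; edgeR adjusted p = 0.00164), Padi2 by 2.72 ± 0.53 (adjusted p = 0.00311), Padi3 by 1.89 ± 0.41 (adjusted p = 0.0045) and Padi4 by 2.50 ± 0.47 (adjusted p = 0.00204).

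All 4 calls held without each of the 19 libraries in turn and without the libraries over 5 CPM of Cr2. None held with the mean of the secreted oocyte genes as a covariate, under which few of all genes tested were called. Padi3 and Padi4 were low, averaging 0.894 ± 0.131 CPM and 4.28 ± 3.11 CPM at 12 months (SD, n = 4) and 0.233 ± 0.126 CPM and 0.75 ± 0.41 CPM at 3 months (SD, n = 5). Replicate 4 of 12 months, which had the highest level of all 10 oocyte genes at that age, had the lowest of all 4 of these genes. At 12 months 2 of 6 oviduct markers rose, where 10.9% of all genes tested rose. The summed oviduct markers were 2440 to 5300 CPM at 12 months, against 1810 to 2920 CPM at 3 months. In 12 month replicates 1, 2, 3 and 4 they were 5300, 2440, 4270 and 3280 CPM, and their part in the rise of the deiminase genes was not tested.

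**Figure D5:**
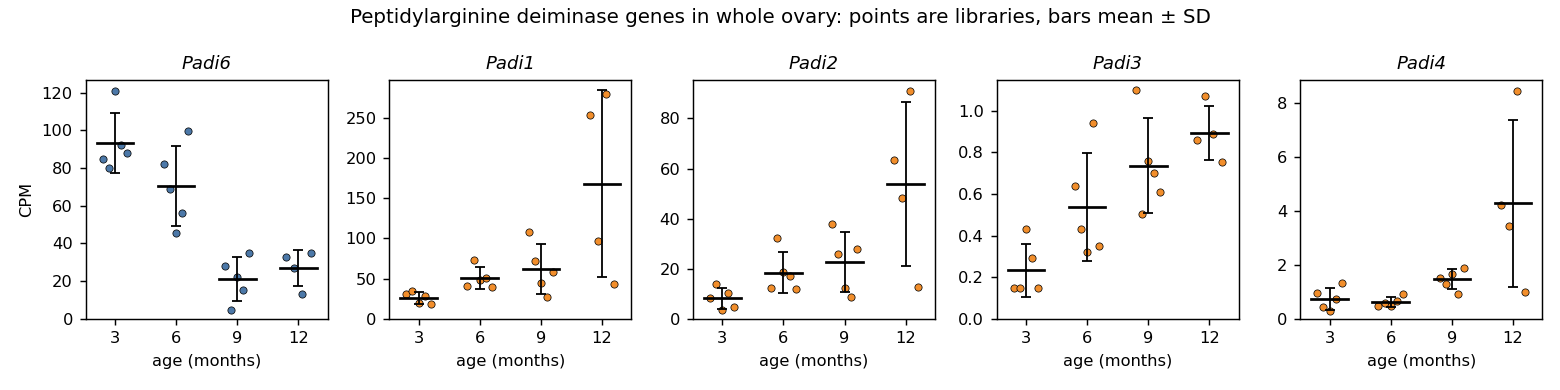
Level in CPM (vertical axes, from 0, each on its own scale) of Padi6 and its neighbours Padi1 to Padi4 by age in months (horizontal axis). Points are libraries, the horizontal bar is the mean and the error bar 1 SD. Padi6 averaged 27.0 CPM at 12 months and 93.2 CPM at 3 months, while Padi1 averaged 168 CPM at 12 months and 26.2 CPM at 3 months.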

How the data were processed

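The authors deposited estimated counts per gene that need not be whole (17.4% to 21.4% of nonzero values of a library are whole within 1e-08), and log2 values normalized across libraries, per the file headers. The submitters' processing notes name the mm10 build. No aligner or counting method is given in the sources used here. The labels' protocols name a kit that keeps strand. Libraries of 1 age differed beyond counting noise (chi-square per degree of freedom 5.02 to 38). Each of the tables holds 1 column that matched no sample and was not used.

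The 10 genes, the gene lists, the tests and their alternatives were chosen with earlier results of these data known. Estimated counts were rounded and tested with edgeR 4.0.16 (quasi-likelihood, robust, TMM; 1 mean per age over 19 libraries) on 15518 genes with a minimum count of 10 and total of 15, with Benjamini-Hochberg adjustment and a threshold of 0.05. The trend is the change over 9 months. Ratios used limma 3.58.1 on log2 CPM (prior count 2). These ratios, the tests of successive steps, the spacing of the E-box and the choice of transcript length were added after values were seen. Alternatives are given in the closing section.

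Named genes are the 10, up to 4 genes of each list with the smallest p at 12 against 3 months, the 2 most abundant genes of each list that were not called, abundant cell type markers and the 8 genes of closest pattern, of which part is printed. Tle1, Tle3, Npm1, Zar1, Zar1l, Wee2, Uhrf1, Ctcf, Sebox, Fmn2, Zbed3, Cdh1 and Cr2 were named after their values were seen. In the comparison of 12 against 3 months 11.5% of all genes tested fell and 10.9% rose. Of 7 tested primordial oocyte genes 5 fell at 12 months (median -1.56), and of 10 granulosa genes 2, of 6 theca genes 3 and of 6 secreted oocyte genes 6 fell. Of 6 corpus luteum genes 1, of 6 oviduct genes 2 and of 6 lymph node genes 4 rose, and of 5 liver genes 0 were called at 12 months, with 4 higher at 9 months as given in the results. On simulated counts of 15381 genes for 12 against 3 months 38 of 67 genes with a true fold of 1.5, 54 of 67 with 2 and 60 of 66 with 4 were called, beside 5 false calls.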

Additional observations from a re-analysis of the deposited data

Results flagged for a closer look

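The values here stood apart from the other libraries of their age by Dixon's criterion. Of 196 groups examined 16 were marked, and chance marks about 1 in 20. Among the 10 genes these were Khdc3 at 11.9 CPM in 6 month replicate 5, Tle6 at 49.7 CPM in 3 month replicate 3 and Tle6 at 31.1 CPM in 12 month replicate 4, each the highest of its age. Replicate 5 of 6 months was also highest for Nlrp4g (7.46 CPM), Btg4 (15.1 CPM) and Trim28 (322 CPM), and replicate 1 of 6 months for Nlrp4c (1.28 CPM). In 12 month replicate 3 Nlrp4c had 0.148 CPM, while the other 3 libraries of that age had 0. Replicate 3 of 3 months was highest for Bmp15 (60.1 CPM), for Nobox (12.2 CPM) and for the mean log2 CPM of the primordial oocyte list (2.75). Zp2 was lowest in 12 month replicate 3 (10.1 CPM), Lhx8 highest in 9 month replicate 1 (2.29 CPM), and Figla had 0.304 CPM in replicate 5 of 9 months, where the other 4 libraries had 0. The mean log2 CPM of the more widely expressed relatives was 4.17 in 1 library of 9 months and 3.95 in 1 library of 12 months.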

How the results depend on the processing

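All 10 genes were called lower at 12 and at 9 months against 3 months and along the trend under DESeq size factors, DESeq2, limma-voom, limma-trend on log2 values of the authors, all genes unfiltered, CPM 1 required in 4 libraries, without the 3 libraries over 5 CPM of Cr2, without the 4 over 5 CPM of Cr2 or 50 CPM of liver markers and without each library, and for both pairs of ages with only the ages compared. At 9 against 6 months 8 to 10 were called under these, except 4 without the 4 libraries. That alternative called 557 genes of all tested at 9 against 6 months, 1275 at 9 against 3 months and 8 at 6 against 3 months, and put the log2 change of Nlrp4f at 12 against 9 months at -0.15. With the oocyte-secreted list as a covariate, a list that varies with the 10 genes, the members called were 0 at 12 and at 9 against 3 months, at 9 against 6 months and along the trend, and all genes called were 70, 1, 128 and 33, with 0 at 6 against 3 months. Under it, log2 changes that reversed were, at 12 against 3 months, Nlrp14 0.21, Nlrp4f 0.16 and Npm2 0.21; at 9 against 3 months 0.26, 0.40 and 0.42 for the same genes; at 9 against 6 months 0.05, 0.11 and 0.30; and along the trend 0.15, 0.03 and 0.10, with Dppa3 at 0.15. At 6 against 3 months Nlrp5 was at 0.22, Padi6 0.25, Tle6 0, Nlrp14 0.21, Nlrp4f 0.29, Npm2 0.11, Dppa3 0.04 and H1foo 0.05. At 12 against 9 months Khdc3 was at -0.03, Nlrp14 -0.06, Nlrp4f -0.23, Npm2 -0.21 and H1foo -0.01, and without the libraries over 5 CPM of Cr2 Nlrp4f was at -0.10. Genes called at 6 against 3 months were 47 by DESeq2, 34 with only the ages compared and 8 without the Cr2 libraries, and DESeq2 called 252 at 12 against 9 months. Leaving out 1 library gave 2124 (without 12 month replicate 3) to 3806 genes at 12 against 3 months, 0 (without replicate 3 of 3 or of 6 months) to 5 (without 12 month replicate 2) at 6 against 3 months, 1721 (without 6 month replicate 5; near it 1741 without 9 month replicate 3) to 3212 at 9 against 6 months and 0 to 278 (without 9 month replicate 5) at 12 against 9 months, where the log2 changes spanned -0.02 to 0.45 for Khdc3, -0.02 to 0.51 for Nlrp14, -0.08 to 0.51 for Nlrp4f and -0.15 to 0.57 for Npm2. The cause of these differences was not tested. No paired analysis was possible because the labels give no replicate numbers shared between ages.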
